A study of Mus musculus with 3 samples.

Results

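The genes described here are 45 integrins, laminins and other integrin ligands, focal adhesion proteins and actin cytoskeleton genes, chosen by symbol from a list of adhesion genes. Of these, 44 had at least 1 probe set with a single gene symbol on the array, 101 probe sets in all, out of 18193 named genes in the series. Ptk2, focal adhesion kinase, had no such probe set and was not analysed here. The study exposed CT26.WT cells, a mouse colon carcinoma line, to recombinant mouse S100a8 or S100a9, calcium-binding proteins known from neutrophils and monocytes and released at sites of inflammation. One group received 4 µg/ml of S100a8 for 24 h after 12 h without serum, another received 4 µg/ml of S100a9 on the same schedule, and the control culture shares the serum-free step of the same protocol text. The labels name the vehicle of the control as albumin in one place and as saline in another, and give no 24 h exposure for it. All groups are the same cell line, and each is represented by 1 array. With 1 array per group there were no replicates, no test and no p-value, and every ratio below compares single arrays.

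Integrins are paired alpha and beta chains that span the cell membrane and bind matrix proteins such as laminins and fibronectin, or cell surface ligands such as Vcam1. Inside the cell they connect, through talin, vinculin, zyxin and other focal adhesion proteins, to actin filaments that tropomyosins and calponins decorate. Actin assembly feeds back on transcription through the serum response factor Srf with its MRTF cofactors and through Yap1 with TEAD factors. In carcinoma cells these genes are known for their part in attachment, spreading and migration.

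Signals are the deposited probe set intensities, and each gene is represented by its brightest probe set. The floor is the median of all signals over the 3 arrays (75.97), and a gene was compared where its mean log2 signal lay above it. This left 11138 genes. The trimmed mean signal was 311 for S100a8, 311 for S100a9 and 316 for the control. Intensities of different probe sets depend on the probes, so levels were not compared between genes. Of the epithelial markers, Krt18, Krt20, Cdx2 and Epcam were above the floor, while Cdh1 (E-cadherin), Krt8, Krt19 and Vil1 were below it on all 3 arrays. The epithelial label of the line thus rested on 4 of 8 markers at this floor. Of these 4, Epcam and Cdx2 had dim signals near the floor. Epcam had 112.94 with S100a8 and 85.45 with S100a9, against 101.16 in the control. Cdx2 had 122.34 with S100a8 and 108.7 with S100a9, against 100.66 in the control.

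Of the 44 genes with a probe set, 31 were above the floor, each on all 3 arrays, and 13 were below it on every array, with signals between 14.2 and 69.9. Set against control, Vcam1 was the member with the lowest ratio under either protein. Itgb7, Itga6 and Tpm2 had higher signals, and Lamb2, Zyx and Itgb5 lower ones. With S100a8, 23 of the 31 compared members were below control, against 47.5% of all compared genes, and the median log2 ratio was -0.08, against 0.01 over all genes. With S100a9, 19 of 31 were below control, against 48.1% of all genes, with a median of -0.05 for the members, against 0.005. The comparisons share the control array, so a deviation of that array enters both.

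A difference of at least 1.5-fold was used as a descriptive size. Below control by this size lay 1 of the 31 members with S100a8 (3.23%), against 1.91% of all compared genes, and 1 with S100a9, against 0.853%. In both it was Vcam1. At 2-fold Vcam1 was the 1 lower member with S100a8 (0.287% of all genes) and 0 were lower with S100a9 (0.144%), while 0 were higher with either protein (0.0449% and 0.00898% of all genes). Above control by 1.5-fold lay 0 members with S100a8, against 1.13% of all genes, and 0 with S100a9, against 0.251%. At 1.25-fold, a size added after the values were seen, 7 members were lower with S100a8 (22.6%, against 8.01% of all genes) and 3 higher (9.68%, against 9.48%). With S100a9 4 were lower (12.9%, against 5.04%) and 2 higher (6.45%, against 3.23%). The share of members higher with S100a8 was thus near that of all genes.

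**Figure D1:**
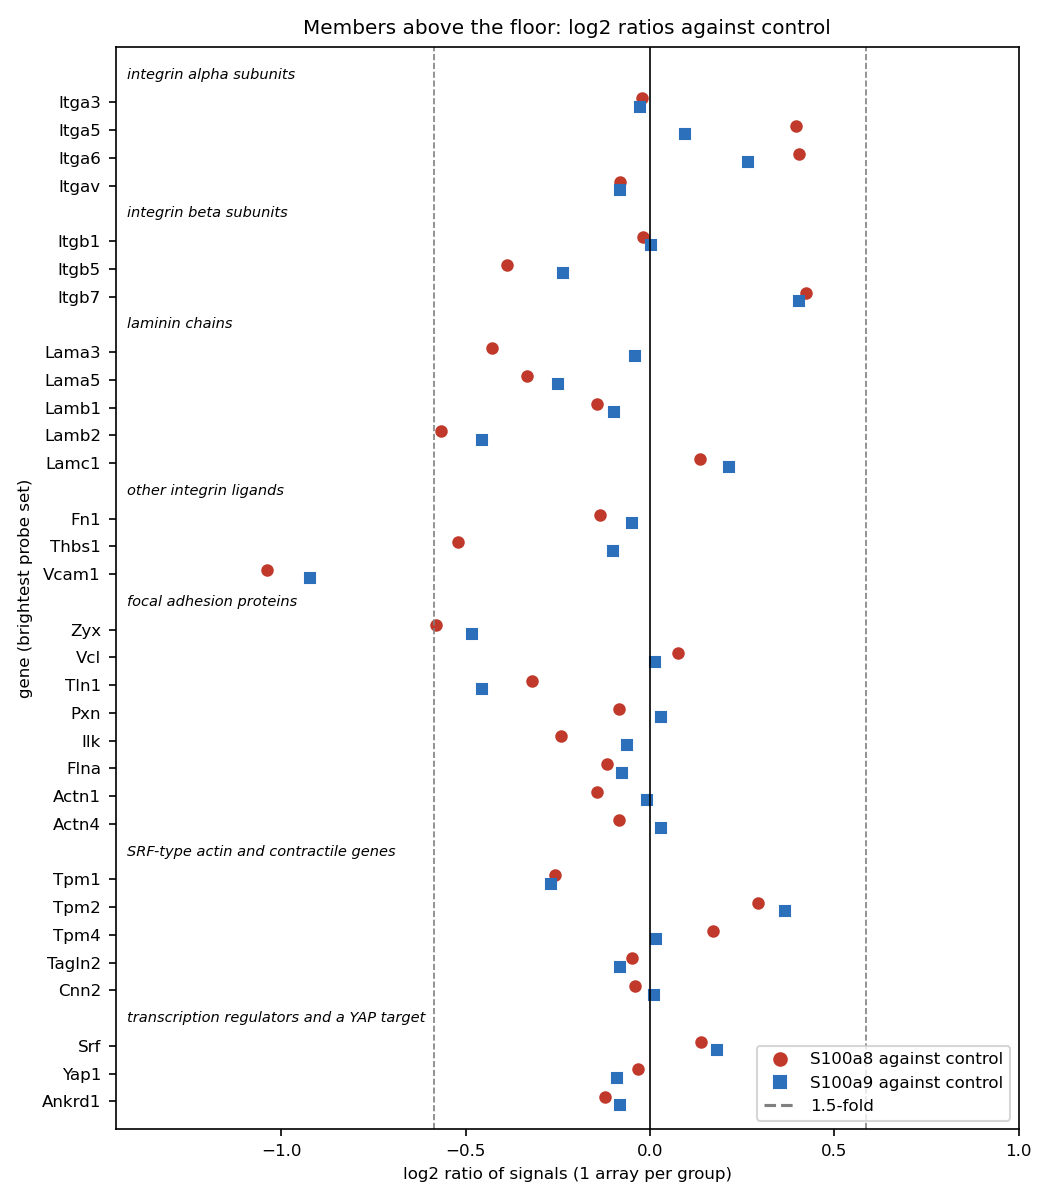
Log2 ratio of signals against control (x axis) for the 31 members above the floor (y axis, by subgroup), with S100a8 as circles, S100a9 as squares and dashed lines at 1.5-fold. Vcam1 alone lies beyond the dashed line, at -1.04 with S100a8 and -0.92 with S100a9, while Itgb7 has the highest S100a8 ratio (0.42).

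Vcam1 encodes a cell surface adhesion molecule that binds integrins with the alpha 4 chain on leukocytes, and it is known as a gene induced by inflammatory cytokines. Its signal was 1189 with S100a8 and 1288 with S100a9, against 2442 in the control, which is 2.05-fold and 1.90-fold lower. Both treated cultures lay below the control and close to each other (1.08-fold higher with S100a9 than with S100a8). A further probe set gave 425 with S100a8 and 477 with S100a9, against 947 in the control, and the remaining one 299.8, 293.6 and 469.5 in the same order. All 3 probe sets were thus lower, with log2 ratios from -1.16 to -0.65 for S100a8 and from -0.99 to -0.68 for S100a9. Among all compared genes, 29 had a ratio at or below that of Vcam1 with S100a8, itself included, and 21 with S100a9. Icam1, another cytokine-inducible adhesion molecule, could not be compared, since its single probe set gave 19.8 with S100a8 and 17.5 with S100a9, against 22.1 in the control, all below the floor.

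Fibroblast marker genes differed from control in the same direction. Of 8 listed, 6 were compared, of which 6 were below control with S100a8 (3 of them by 1.5-fold) and 5 with S100a9 (1 by 1.5-fold). Over all genes 47.5% were below control with S100a8 (1.91% by 1.5-fold) and 48.1% with S100a9 (0.853% by 1.5-fold). Lum and Thy1 were below the floor. Pdgfrb, a growth factor receptor of mesenchymal cells that is named here after its values were seen, had 426 with S100a8 and 476 with S100a9, against 808 in the control. The summed signal of the list was 10828 with S100a8 and 11879 with S100a9, against 12067 in the control. All groups are the same cell line, so the marker lists here and below do not measure numbers of fibroblasts or other cell types. In bulk RNA fewer cells expressing a gene and less RNA per cell cannot be told apart. The part of the fibroblast markers in the Vcam1 result was not tested.

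Fibronectin, Fn1, a matrix glycoprotein bound by the alpha 5 beta 1 and alpha v integrins, gave different answers by probe set. The brightest had 7419 with S100a8 and 7882 with S100a9, against 8154 in the control (log2 ratios of -0.14 and -0.05). The other one had 223 with S100a8 and 244 with S100a9, against 542 in the control, a log2 ratio of -1.28 and of -1.15. These ratios lie below those of the brightest Vcam1 probe set. The files do not say which transcripts or regions the probe sets read, and the cause of the disagreement was not tested.

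Thbs1, thrombospondin 1, a matrix protein that also binds integrins, had 135 with S100a8 and 180.0 with S100a9, against 193 in the control. The S100a8 array stood lowest, 1.43-fold below control, while the S100a9 array was 1.07-fold below control. Its further probe set lay below the floor on all 3 arrays. Thbs2, a second thrombospondin outside the member list, had the same order of arrays, with 1229 for S100a8, 1616 for S100a9 and 1724 for the control (log2 ratios of -0.49 with S100a8 and -0.09 with S100a9).

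Laminins are trimers of an alpha, a beta and a gamma chain and form the basement membrane on which epithelial cells rest. Of the 8 chains, 5 were compared, and 4 were below control with either protein. Over all genes 47.5% lay below control with S100a8 and 48.1% with S100a9. The median log2 ratio was -0.33 with S100a8, against 0.01 for all genes, and -0.10 with S100a9, against 0.005. The S100a8 median was -0.14 with a floor at the 30th percentile and -0.07 with dim chains kept in, and ranged from -0.38 to -0.07 over all alternatives. Lama1, Lama4 and Lamb3 were below the floor, with signals between 20.1 and 52.3.

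Lamb2, the beta 2 chain, had the lowest ratio, with signals of 181 (S100a8), 196 (S100a9) and 268 (control). This was 1.48-fold and 1.37-fold lower, short of the 1.5-fold size, and rests on 1 probe set. Lama5, the alpha 5 chain, had 422 with S100a8 and 447 with S100a9, against 532 in the control (1.26-fold and 1.19-fold lower), while its dimmest probe set was at 0.06 and -0.09 on the log2 scale. Lama3, the alpha 3 chain, differed between the treatments, with dim signals of 110.4 under S100a8 and 144 under S100a9, against 149 in the control.

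Lamb1, the beta 1 chain, had 2271 with S100a8 and 2343 with S100a9, against 2507 in the control. All 3 of its measured probe sets were lower, with log2 ratios from -0.48 to -0.14 for S100a8 and from -0.32 to -0.10 for S100a9. Lamc1, the gamma 1 chain shared by many laminins, was the one chain above control, at 592 with S100a8 and 625 with S100a9, against 539. Its further probe set went the other way (log2 ratios of -0.02 and -0.20), so its direction depends on the probe set.

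**Figure D2:**
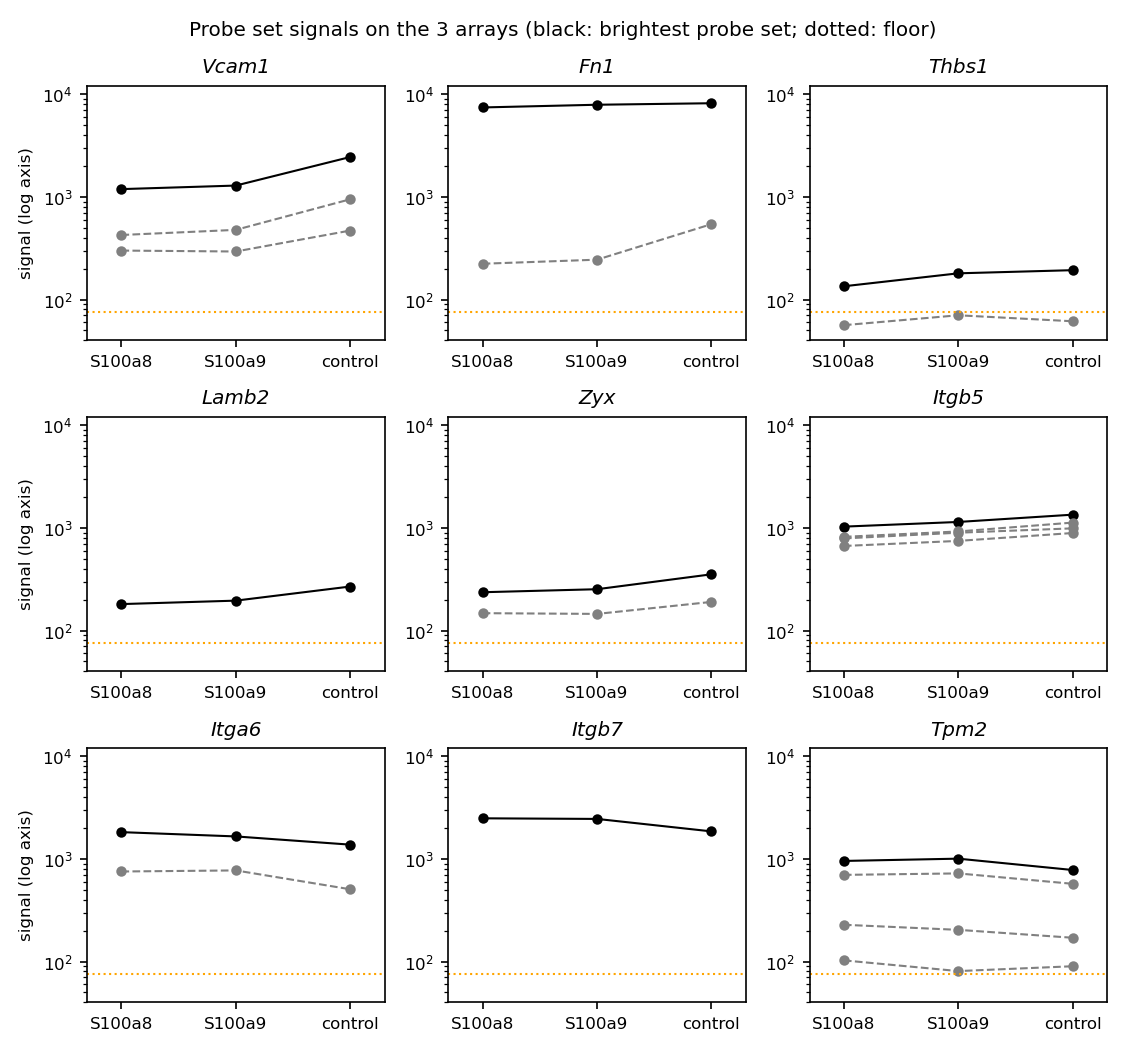
Probe set signals (log axis) on the S100a8, S100a9 and control arrays for 9 members, with the brightest probe set in black, further ones in grey and the floor (75.97) dotted. All 3 Vcam1 probe sets and all 4 Itgb5 probe sets are lower on both treated arrays than on the control, both Itga6 probe sets are higher, and the Fn1 probe sets differ in size.

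The integrin chains themselves went both ways. Of 7 alpha chains 4 were compared and of 5 beta chains 3. The alpha chains' median log2 ratios were 0.19 for S100a8 and 0.03 for S100a9, and the beta chains' -0.02 and 0.003. Itga1, Itga2, Itga4, Itgb3 and Itgb4 were below the floor on all 3 arrays.

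Itga6, whose product binds laminins with beta 1 or beta 4, had 1819.5 with S100a8 and 1653 with S100a9, against 1375 in the control (1.32-fold and 1.20-fold higher). The further probe set had 753, 771 and 505, with log2 ratios of 0.57 and 0.61. Both probe sets were thus higher on both treated arrays. Its partner chain Itgb1 had 1229 and 1247 under the proteins (S100a8 first) and 1244 in the control, so the alpha 6 and beta 1 chains had different ratios, and the beta 4 chain was not above the floor.

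Itgb7, a beta chain best known from lymphocytes that home to the gut, had 2480.5 with S100a8 and 2447 with S100a9, against 1851 in the control. It was 1.34-fold and 1.32-fold higher, which came from 1 probe set. Of all compared genes, 494 had a ratio at or above that of Itgb7 with S100a8 and 157 with S100a9. Of the alpha chains that are known to pair with beta 7, Itga4 lay below the floor (57.7 with S100a8 and 52.9 with S100a9, against 47.9 in the control) and Itgae was near it (91.7, 83.4 and 73.5).

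Leukocyte marker genes were also above control. Of 9 listed, 6 were compared, and 6 were above control with S100a8 (1 by 1.5-fold) and 5 with S100a9 (1 by 1.5-fold). Of all compared genes, 52.5% were above control with S100a8 (1.13% by 1.5-fold) and 51.2% with S100a9 (0.251% by 1.5-fold). Of the 6 compared markers, 3 belong to the dimmest 25% of genes, whose median log2 ratio was 0.14 with S100a8 and 0 with S100a9. Summed over the list, the signal was 2143 for S100a8 and 1860.0 for S100a9, against 1675 for the control. Ptprc (CD45), which defines leukocytes, was at 44.9 with S100a8 and 35.9 with S100a9, against 32.01 in the control, below the floor on each array. The part of these markers in the Itgb7 result was not tested.

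Itgb5, which pairs with alpha v and binds vitronectin, had 1027 with S100a8 and 1141 with S100a9, against 1344 in the control (1.31-fold and 1.18-fold lower). All 4 of its probe sets were above the floor and lower, with log2 ratios from -0.46 to -0.33 for S100a8 and from -0.29 to -0.14 for S100a9. Its partner Itgav had 2205 with S100a8 and 2208 with S100a9, against 2334 (log2 ratios of -0.08 for each protein). Of the further Itgav probe sets, one had log2 ratios of -0.67 for S100a8 and -0.59 for S100a9 and another 0.01 and 0.46, so they disagreed.

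Itga5, the fibronectin-binding alpha chain, had 252 and 204 under S100a8 and S100a9, against 191 in the control. Only the S100a8 array stood apart (1.32-fold higher), and a further probe set went the other way, at a log2 ratio of -0.16 with S100a8. Itga3, a laminin-binding chain, had 326, 325 and 331, and the arrays were within 1.02-fold of each other.

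Focal adhesion proteins connect integrin tails to actin, and all 8 with a probe set were above the floor. With S100a8 7 of 8 were below control (47.5% of all genes), with a median log2 ratio of -0.13, against 0.01 over all genes. With S100a9 5 of 8 were below control (48.1% of all genes), with a median of -0.04, against 0.005. Lower by 1.25-fold were 1 of the 8 with S100a8 (12.5%, against 8.01% of all genes) and 2 with S100a9 (25%, against 5.04%). Zyx, zyxin, which gathers at adhesions under tension, had 236 with S100a8 and 253 with S100a9, against 353 in the control (1.49-fold and 1.40-fold lower). Its further probe set had 148, 145 and 190.0, lower on both treated arrays as well. Tln1, talin 1, which activates integrins by binding their tails, had 454 with S100a8 and 413 with S100a9, against 566. These are log2 ratios of -0.32 and -0.45, but a further Tln1 probe set was at 0.08 with S100a8 and -0.09 with S100a9 on the log2 scale.

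The remaining adhesion proteins differed less from control. Ilk, integrin-linked kinase, had 1102 and 1248 under S100a8 and S100a9, against 1304 in the control. The actin cross-linkers Flna, Actn1 and Actn4 had log2 ratios between -0.14 and -0.08 with S100a8 and between -0.08 and 0.03 with S100a9. Actn4, an alpha-actinin and the highest of the group with S100a9, had 4341 with S100a8 and 4694 with S100a9, against 4598 in the control. Vcl, vinculin, which strengthens the link to actin, was the highest of the group with S100a8, with 2296 with S100a8 and 2198 with S100a9, against 2178. Pxn, the adaptor paxillin, had 1993, 2156 and 2113. The further Actn1 probe sets went other ways, one with log2 ratios of 0.22 (S100a8) and 0.27 (S100a9) and one with -0.08 and 0.23.

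**Figure D3:**
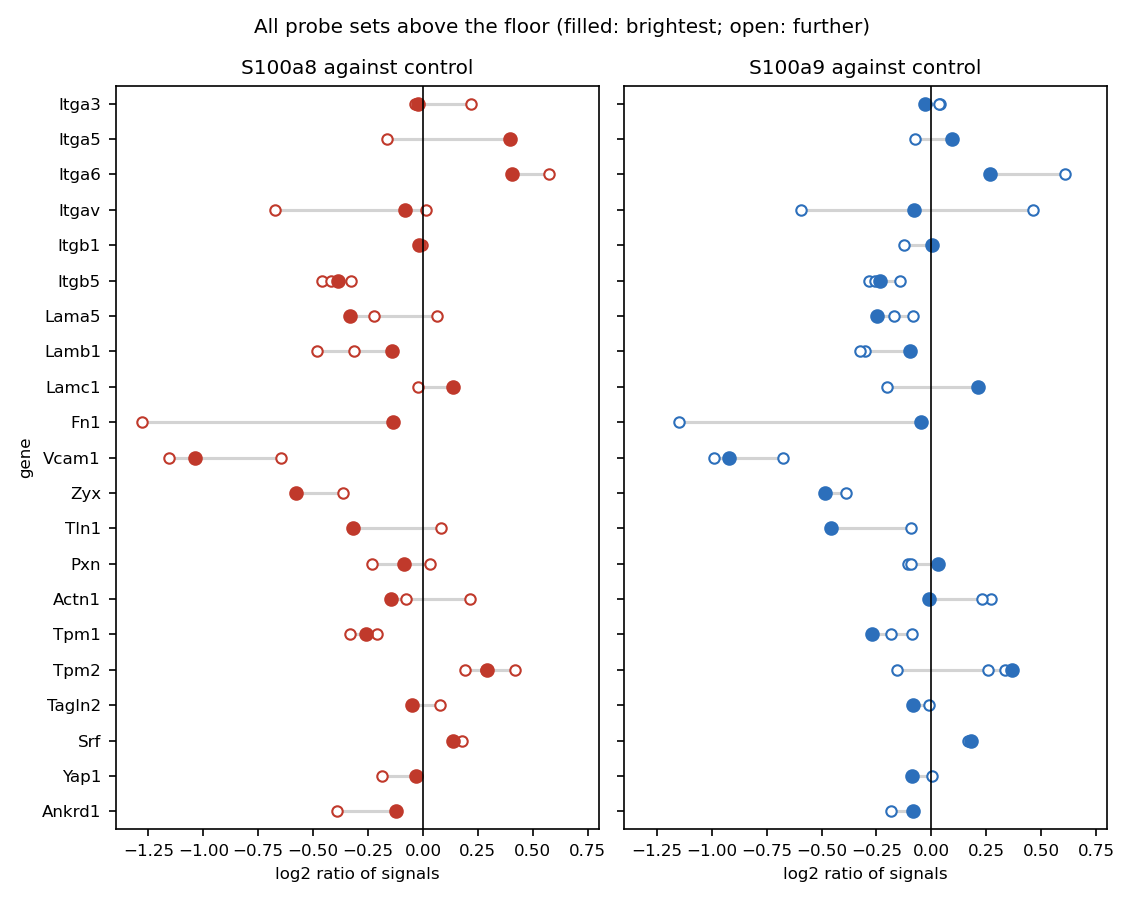
Log2 ratios (x axis) of every probe set above the floor for the 21 members with several such probe sets (y axis), for S100a8 (left) and S100a9 (right) against control, with the brightest probe set filled and further ones open. All probe sets of Vcam1, Itgb5, Lamb1, Zyx and Tpm1 lie left of 0 in both panels and those of Itga6 and Srf right of it, while those of Itgav and Actn1 straddle it.

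Where several probe sets of a member were above the floor, their agreement served as the only check on its direction, one on the probes and not on the cultures. Of 21 such members, all probe sets went the same way in 12 with S100a8 and in 12 with S100a9. Over the 4948 genes of the array with several measured probe sets, 52.5% did so with S100a8 and 51.6% with S100a9. Over these genes the brightest probe set and the next differed by a median of 0.15 on the log2 scale with S100a8 and 0.12 with S100a9.

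The contractile genes of the SRF type divided into a set below the floor and a set above it. Acta2 (smooth muscle actin), Tagln (transgelin), Cnn1 (calponin 1) and Myl9 (a myosin light chain), all known from smooth muscle and myofibroblasts, were below the floor on every array, with signals between 14.2 and 69.9. The other five, Tpm1, Tpm2, Tpm4, Tagln2 and Cnn2, were above it on every array. Their median log2 ratio was -0.04 with S100a8 and 0.01 with S100a9.

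Tropomyosins, which coat actin filaments, differed among themselves. Tpm1 had 3074 with S100a8 and 3054 with S100a9, against 3677 in the control, 1.20-fold lower with either protein. All 3 measured probe sets were lower (log2 ratios from -0.33 to -0.21 for S100a8 and from -0.27 to -0.09 for S100a9). Tpm2 had 954 with S100a8 and 1004 with S100a9, against 779, which is 1.23-fold and 1.29-fold higher. All 4 of its probe sets were higher with S100a8 and 3 with S100a9, the dimmest being at -0.16. Tpm4 had 4128, 3709 and 3671, so that only the S100a8 array lay above the rest, by 1.12-fold over control. Tagln2, transgelin 2, and Cnn2, calponin 2, had log2 ratios between -0.08 and 0.01.

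Srf, the transcription factor after which this set is named, had 740.3 with S100a8 and 763 with S100a9, against 673 in the control (1.10-fold and 1.13-fold higher). Its further probe set had 188, 187 and 166, so both were higher on both treated arrays, though each by a small amount. Yap1, the Hippo pathway coactivator, had 1384 and 1330.3 under S100a8 and S100a9, against 1415 in the control. Ankrd1, a nuclear ankyrin repeat protein known as a YAP and TEAD target, had 580.2 and 597 under S100a8 and S100a9, against 631 in the control, and its further probe set 469.6 and 541, against 615. Both Ankrd1 probe sets were lower on both treated arrays, the larger log2 ratio being -0.39 with S100a8.

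The promoters of the SRF-type genes are shown because genes that carry the same SRF-binding motif fell on both sides of the floor. RefSeq promoter windows (GRCm38.p6) were found by symbol for 32 of the 45 members, and the 250 bases before each start were searched. The motif was the CArG box, 2 C, 6 bases that are each A or T, and 2 G, which reads the same in pattern on either strand. It was present for 4 of the 32 members, Srf, Vcl, Cnn2 and Myl9, and for 1.62% of 27025 genes. Srf, Vcl and Cnn2 were above the floor and Myl9 below it. A match describes the letters and does not show binding, and the list was assembled with SRF-type genes in mind. The windows follow 5′ to 3′ on the strand of the gene, with the CArG boxes in capitals.
Srf (chr17:46556163-46556412, minus strand): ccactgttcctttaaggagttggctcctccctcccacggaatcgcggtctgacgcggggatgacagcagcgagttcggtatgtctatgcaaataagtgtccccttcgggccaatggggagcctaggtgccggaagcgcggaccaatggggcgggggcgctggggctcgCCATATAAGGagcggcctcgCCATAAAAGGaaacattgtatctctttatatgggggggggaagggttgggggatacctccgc
Vcl (chr14:20929148-20929397, plus strand): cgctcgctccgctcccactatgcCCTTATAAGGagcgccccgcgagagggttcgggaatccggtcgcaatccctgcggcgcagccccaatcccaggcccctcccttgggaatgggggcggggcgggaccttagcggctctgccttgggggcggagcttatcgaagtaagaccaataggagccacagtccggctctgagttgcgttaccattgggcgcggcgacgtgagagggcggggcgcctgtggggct
Cnn2 (chr10:79988350-79988599, plus strand): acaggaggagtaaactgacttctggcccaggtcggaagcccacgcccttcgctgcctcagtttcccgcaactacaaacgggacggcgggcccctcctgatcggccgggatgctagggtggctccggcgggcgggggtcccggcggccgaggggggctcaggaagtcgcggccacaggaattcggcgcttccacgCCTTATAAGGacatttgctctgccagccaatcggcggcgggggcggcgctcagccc
Myl9 (chr2:156775214-156775463, plus strand): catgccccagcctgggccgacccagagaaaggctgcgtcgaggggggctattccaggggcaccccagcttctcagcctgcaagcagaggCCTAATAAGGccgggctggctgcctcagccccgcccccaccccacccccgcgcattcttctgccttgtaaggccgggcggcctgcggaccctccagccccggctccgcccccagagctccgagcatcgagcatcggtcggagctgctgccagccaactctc

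Srf carried 2 boxes, beginning 82 and 62 bases before its start, and the boxes of Vcl, Cnn2 and Myl9 began 227, 56 and 161 bases before theirs. The boxes of Vcl and Cnn2 had the same letters (CCTTATAAGG). The log2 ratios of the 3 genes that could be compared were 0.14 (Srf), 0.08 (Vcl) and -0.04 (Cnn2) with S100a8 and 0.18, 0.01 and 0.01 with S100a9. For TEAD factors the letters GGAATG were searched on both strands in the same windows. They were present for 10 of the 32 members and for 14.4% of all genes, and overlapped no CArG box in the windows printed. The Ankrd1 window had 2 matches on the gene's strand, in capitals here.
Ankrd1 (chr19:36119845-36120094, minus strand): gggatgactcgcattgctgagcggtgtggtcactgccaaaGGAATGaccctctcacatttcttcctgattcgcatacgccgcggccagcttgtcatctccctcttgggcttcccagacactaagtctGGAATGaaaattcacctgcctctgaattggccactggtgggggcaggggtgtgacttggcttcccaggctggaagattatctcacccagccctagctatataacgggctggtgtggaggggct

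Set against each other, the proteins gave no member a difference of 1.5-fold. With S100a9 21 of 31 members had a higher signal than with S100a8, against 54.9% of all genes, with a median log2 ratio of 0.05, against 0.02. At 1.5-fold 0 members were higher and 0 lower with S100a9, against 0.0988% of all genes higher and 1.01% lower. At 2-fold the counts were 0 and 0 as well (0.00% of all genes higher and 0.0180% lower). At 1.25-fold 2 members were higher with S100a9 (2.00% of all genes) and 0 lower (7.82%).

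The 2 were Thbs1, at 180.0 with S100a9 against 135 with S100a8 (1.34-fold), and Lama3, at 144 with S100a9 against 110.4 with S100a8 (1.31-fold). Both belong to the dimmest 25% of compared genes. In that class the median log2 ratio of S100a9 to S100a8 was -0.12 and that of S100a8 to control 0.14. Both genes were named because they were higher with S100a9, so their difference from the class median of -0.12 follows from the choice. Each rests on 1 probe set above the floor. Itga5 had the lowest ratio, with 204 with S100a9 against 252 with S100a8 (-0.30). The 5 compared laminin chains were all higher with S100a9, by 0.05 to 0.39 on the log2 scale, but Lama5 (down to -0.004) and Lamc1 (down to -0.05) turned under some alternatives. Likewise the 3 compared ligands Fn1, Thbs1 and Vcam1 were higher, by 0.09 to 0.42. Over all genes 54.9% were higher with S100a9 than with S100a8.

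**Figure D4:**
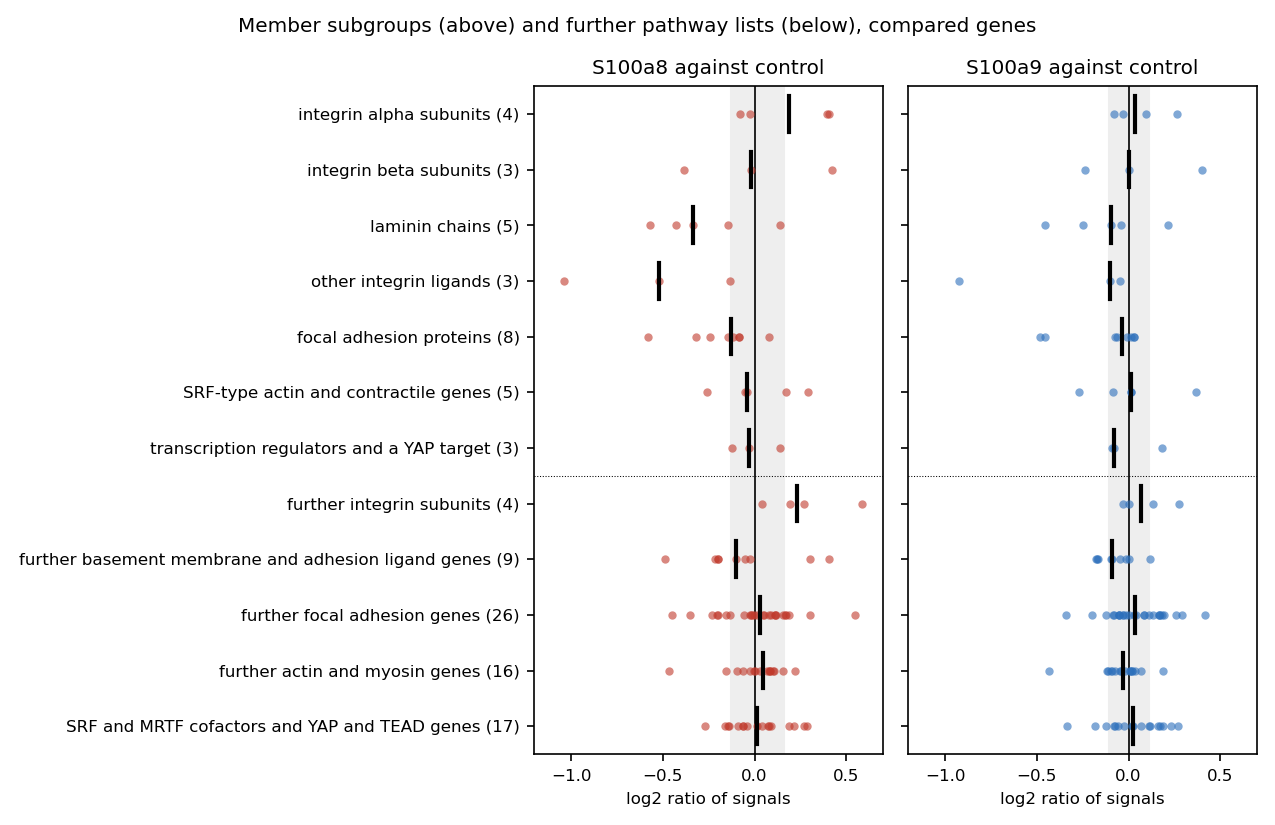
Log2 ratios against control (x axis) of the compared genes in each member subgroup (above the dotted line) and in 5 further pathway lists (below it), with the number of genes in brackets, a black bar at each median and grey bands from the 25th to the 75th percentile of all compared genes. The medians of laminin chains (-0.33) and other integrin ligands (-0.52) with S100a8 lie outside the band on the low side at this floor. Both depend on the setting (from -0.38 to -0.07 and from -0.71 to -0.33). On the high side with S100a8 lie the medians of integrin alpha subunits (0.19, from 0 to 0.27 by setting) and further integrin subunits (0.23, on dim genes).

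The rest of the pathway was read from 5 further lists, of which 72 genes were compared. With S100a8 39 were higher and 33 lower (median log2 ratio 0.02), and with S100a9 36 were higher and 35 lower (median 0.001). At 1.5-fold 1 was higher and 0 lower with S100a8, against 1.13% and 1.91% of all genes, and 0 were higher or lower with S100a9, against 0.251% and 0.853%.

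Among 14 further integrin chains 4 were compared, and all 4 were higher with S100a8, against 52.5% of all genes. All 4 belong to the dimmest 25% of compared genes, whose median log2 ratio was 0.14 with S100a8. Itga9, an alpha chain that binds tenascin, was the 1 gene past 1.5-fold, at 146 under S100a8 and 97.0 under S100a9, against 96.8 in the control, on a dim probe set near the floor. Of 14 further matrix ligands 9 were compared and 7 were lower with either protein. Over all genes 47.5% were lower with S100a8 and 48.1% with S100a9. The type IV collagen gene Col4a2, of the basement membrane, was at -0.22 with S100a8 and -0.18 with S100a9 on the log2 scale. Lamc3, the gamma 3 laminin chain, was at least 1.32-fold higher with S100a8 (100.5, against a control signal below the floor).

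Of 29 further focal adhesion genes 26 were compared, 14 higher and 12 lower with S100a8 (medians of 0.03 and, with S100a9, 0.04). Tgfb1i1 (Hic-5), a paxillin relative, had log2 ratios of -0.45 with S100a8 and -0.34 with S100a9, and Pdlim7, an actin-associated PDZ and LIM protein, -0.35 and -0.20. Lims2 (PINCH2), a partner of integrin-linked kinase, was at 0.55 and 0.42, and the kinase gene Src at 0.30 and 0.20. Of 20 further actin and myosin genes 16 were compared, with medians of 0.05 and -0.03. Msn, moesin, which ties actin to the membrane, was at -0.47 with S100a8 and -0.43 with S100a9, whereas its relative Rdx, radixin, was at 0.22 and 0.19.

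In the list of SRF and MRTF cofactors with YAP and TEAD genes, 17 were compared and the medians were 0.01 with S100a8 and 0.02 with S100a9. The YAP target Ccn1 was at -0.27 and -0.18, while Ccn2, a related target named after its values were seen, was at 0.22 and 0.11. Ccn1 and Ccn2 thus had ratios of opposite sign, with Ccn2 picked by its values. Whether targets of this pathway differ in direction was not tested.

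Smooth muscle markers, which could accompany contractile genes, had 6 of 7 compared. Their summed signals were 1222 under S100a8 and 1131 under S100a9, against 1157 in the control, with 4 genes higher and 2 lower with S100a8 and 3 higher and 2 lower with S100a9. The endothelial list, which could accompany Vcam1, had 3 of 7 compared, 3 of them higher with S100a8 and 2 with S100a9, with summed signals of 473, 410 and 393. Pecam1, Cdh5, Tek and Emcn were below the floor on each array. At 1.5-fold 1 smooth muscle gene (Lmod1) was higher with S100a8 and 0 with S100a9, and 0 endothelial genes were higher with either. Of all compared genes, 52.5% were higher with S100a8 (1.13% by 1.5-fold) and 51.2% with S100a9 (0.251% by 1.5-fold). In the dimmest 25% were 4 of the 6 smooth muscle and 3 of the 3 endothelial genes compared. The part of these markers in the results was not tested.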

How the data were processed

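Total RNA of 3 CT26.WT cultures was hybridised to 1 Affymetrix mouse expression array each. The deposited values are linear intensities per probe set. Per the submitters' processing notes the authors used MAS5, whose version and scaling target were not given in the sources used here. MAS5 corrects with mismatch probes, which makes dim intensities noisy, and common scaling hides changes in total RNA. Precision is limited by the number of arrays.

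Of 45101 probe sets, 34945 had 1 symbol in the platform annotation, 932 had several and 9160 none, and 64 were controls; only the first kind was used. All 101 member probe sets matched a RefSeq gene (GRCm38.p6) by Entrez number, with the same symbol. Signals below the floor (50th percentile, controls left out) were set to it, log2 was taken, and log2 ratios were computed from the brightest probe set per gene with Python 3.11.15 and pandas 2.3.3. No test was possible. The calculation was checked on simulated data. Members, subgroups and lists were chosen with earlier results of these data known. Every member was accounted for, with full values where a ratio reached 1.5-fold or was the highest or lowest of its subgroup, and for Srf and Yap1; from other lists up to 2 genes per direction were named. The alternatives tried were a lower (30th percentile) and a higher (65th) floor, log2(value + 1) without any floor, arrays centred on medians or quantile normalized, dim genes kept in, the mean of a gene's probe sets or its specific probe set, and sizes of 2-fold and, added after the values were seen, 1.25-fold. One further pathway list is not reported here.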

Additional observations from a re-analysis of the deposited data

How the results depend on the processing

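Only Vcam1 differed from control by 1.5-fold as reported, and its ratios kept their sign under every alternative tried. Smaller ratios changed sign in some members, as counted below, and so did some subgroup medians. Vcam1 ranged from -1.08 to -0.95 (log2) with S100a8 and from -0.92 to -0.86 with S100a9. At 2-fold, 0 members were lower with S100a9. Centring each array on its median gave 3 lower members with S100a8 (Lamb2, Vcam1 and Zyx) and moved the members' medians to -0.13 (S100a8), -0.0008 (S100a9) and 0.14 (S100a9 against S100a8); the last moved with the median of all genes, 0.11. Without the filter on dim genes the medians were -0.0205, 0 and 0, since members at the floor enter as 0. The mean of all probe sets gave 2 lower members with each protein, Fn1 (-0.71 and -0.60) beside Vcam1, and Itga5 at 0.06 with S100a8. At 1.25-fold the counts were 3 higher and 7 lower (S100a8), 2 and 4 (S100a9), and 2 higher between the proteins. Of 31 members, 27 kept their sign against control with either protein under every setting that compared them. Of these, 19 were lower with S100a8 and 16 with S100a9. Between the proteins 19 of 31 kept their sign in this sense. The floor at the 65th percentile compared 30 members and the mean of all probe sets 29, so not every member was checked under every setting. On its specific probe set Zyx was at -0.36 with S100a8. The cause of the other differences was not tested. No paired analysis was possible because each group holds 1 array. Signals near the floor are the least certain.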
